A study of Mus musculus with 6 samples.

Results

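Of 17191 genes in the count table, 93 encode nuclear subunits of the mitochondrial respiratory chain or ATP synthase, close copies of them, or assembly factors of complex I. They were chosen by name and level: the symbol begins with Nduf, Uqcr or Atp5, or is Sdha to Sdhd, or begins with Cox followed by 4 to 8, and the count summed over the 6 libraries is at least 60. The names alone matched 96 genes. The 3 below the count limit were Cox8b with 26 counts, Ndufb4c with 30 and Ndufb4b with 46, and the members nearest above it were Cox6b2 with 87 and Cox4i2 with 91. By complex, 39 members belong to complex I, 8 are complex I assembly factors (the Ndufaf genes), 4 belong to complex II, 8 to complex III, 17 to complex IV and 17 to complex V.

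The libraries hold RNA of cells from tumours that CT26, a mouse colorectal carcinoma line, had formed under the skin of female BALB/c mice, which were 6 to 8 weeks old. Mice were randomised when tumours reached 100 to 200 mm3 and were given TP-18, a compound known from the labels only by this code name, at 50 mg/kg by mouth once daily for 3 weeks, or vehicle. There were 3 TP-18 and 3 vehicle libraries. The labels disagree on the cells: one field names CD11b+F4/80+CD206+ macrophages sorted by flow cytometry, another CD11b+ cells taken with magnetic beads, and yet another the CT26 line. The labels do not tie libraries to individual mice. The p-values therefore cover only the spread from library to library, and some of it may be technical.

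The respiratory chain passes electrons from NADH through complex I, or from succinate through complex II, to coenzyme Q, then through complex III, cytochrome c and complex IV to oxygen. Complexes I, III and IV pump protons across the inner mitochondrial membrane, and complex V, the ATP synthase, makes ATP as they flow back. Macrophages with an inflammatory profile are known for leaning on glycolysis, and those activated by interleukin-4 for leaning on mitochondrial respiration. Some subunits are encoded in mitochondrial DNA. Of 13 such genes looked for by their mouse symbols, 0 were in the count table, so they were not analysed here.

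Total counts ran from 16371128 to 17597645 per library and 14690 to 15424 genes had a count. Scaling factors (trimmed mean of M values, TMM) were 1.05 to 1.07 in TP-18 and 0.924 to 0.962 in vehicle libraries, so the scaling itself separates the groups. CPM here is the count scaled to the TMM-adjusted library total. The 10 macrophage markers summed to 4264 to 6440 CPM in TP-18 and 3683 to 7948 CPM in vehicle libraries, and Itgam (CD11b), Adgre1 (F4/80) and Mrc1 (CD206) were present in every library. The 5 epithelial markers summed to 247 to 512 CPM in TP-18 and 344 to 531 CPM in vehicle libraries, of which Epcam made up at most 1.07 CPM.

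Nuclear subunit genes are known for promoters with sites for NRF1, for the ETS factor GABP and for YY1, regulators that link them to mitochondrial biogenesis. RefSeq windows (GRCm38.p6) of 250 bases before to 50 after the gene start were at hand for 75 of the 93 members. On both strands, GCGCNTGCGC was searched for NRF1, the core CGGAAG for ETS factors and AANATGGC for YY1. The NRF1 letters were in a window of 19 of the 75 members (25.3%), against 5.19% of all 27025 genes with a window. The ETS letters were in 35 members (46.7%), against 18.8% of all genes, and the YY1 letters in 19 (25.3%), against 6.96%. At least 1 of the 3 was in 55 members (73.3%), against 26.6% of all genes. Below are, for each motif, the member holding it with the smallest p in the comparison of TP-18 with vehicle (Ndufa6 for NRF1, Cox8a for ETS, Ndufa7 for YY1), and Sdha, the common subunit with the highest fold change. Capitals mark the matches, which in these 4 windows do not overlap each other, and in the Ndufa7 window the ETS and YY1 letters stand side by side.
Ndufa6 promoter (chr15:82354242-82354541, minus strand): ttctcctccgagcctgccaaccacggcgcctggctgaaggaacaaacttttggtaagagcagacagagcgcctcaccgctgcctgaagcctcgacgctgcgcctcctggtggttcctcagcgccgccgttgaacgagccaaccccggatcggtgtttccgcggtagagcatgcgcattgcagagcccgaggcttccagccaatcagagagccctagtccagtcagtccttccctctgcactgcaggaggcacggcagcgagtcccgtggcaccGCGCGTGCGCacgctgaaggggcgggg
Cox8a promoter (chr19:7217567-7217866, minus strand): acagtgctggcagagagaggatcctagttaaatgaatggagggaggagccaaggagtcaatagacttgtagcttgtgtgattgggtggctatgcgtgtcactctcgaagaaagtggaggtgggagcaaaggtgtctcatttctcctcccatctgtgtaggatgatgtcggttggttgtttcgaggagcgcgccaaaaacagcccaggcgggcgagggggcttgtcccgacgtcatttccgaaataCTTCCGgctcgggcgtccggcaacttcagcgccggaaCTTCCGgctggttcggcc
Ndufa7 promoter (chr17:33824395-33824694, plus strand): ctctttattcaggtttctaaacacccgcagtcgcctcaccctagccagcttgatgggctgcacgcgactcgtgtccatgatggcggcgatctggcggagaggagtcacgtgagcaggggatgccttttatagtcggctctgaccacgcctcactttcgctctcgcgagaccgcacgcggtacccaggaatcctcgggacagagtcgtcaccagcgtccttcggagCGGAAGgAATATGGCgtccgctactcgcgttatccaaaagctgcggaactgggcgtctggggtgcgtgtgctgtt
Sdha promoter (chr13:74350191-74350490, minus strand): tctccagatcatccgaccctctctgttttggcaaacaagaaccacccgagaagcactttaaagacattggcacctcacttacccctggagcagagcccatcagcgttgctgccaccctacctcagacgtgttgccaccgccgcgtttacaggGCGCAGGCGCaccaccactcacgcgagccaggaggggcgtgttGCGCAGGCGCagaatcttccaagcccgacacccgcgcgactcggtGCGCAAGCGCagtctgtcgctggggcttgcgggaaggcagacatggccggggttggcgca
A match is a string of letters and not a measured binding site. Members with and without each motif had similar median log2 fold changes, TP-18 over vehicle: -0.16 and -0.20 for NRF1, -0.20 and -0.17 for ETS, -0.17 and -0.20 for YY1.

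Per length, the genes of complexes IV and V had the highest levels. Median FPKM (fragments per kilobase of gene length, scaled to the library total, averaged over the 6 libraries) was 144 for complex V, 119 for complex IV, 87.2 for complex III, 68.7 for complex II, 53.4 for complex I and 5.63 for the complex I assembly factors. The highest single levels were those of Atp5b, the catalytic beta subunit of ATP synthase, at 622 FPKM and of Cox4i1, the common form of the largest nuclear-encoded complex IV subunit, at 547 FPKM. The lowest was that of the assembly factor Ndufaf6, at 0.997 FPKM. Within complex II the 4 subunits lay close together, between 64.3 FPKM for Sdhc and 69.1 FPKM for Sdhb. As a ratio of highest to lowest level, complex IV had the widest span, and 5 isoforms of restricted expression stood far below the 12 common subunits, whose median was 197 FPKM.

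**Figure D1:**
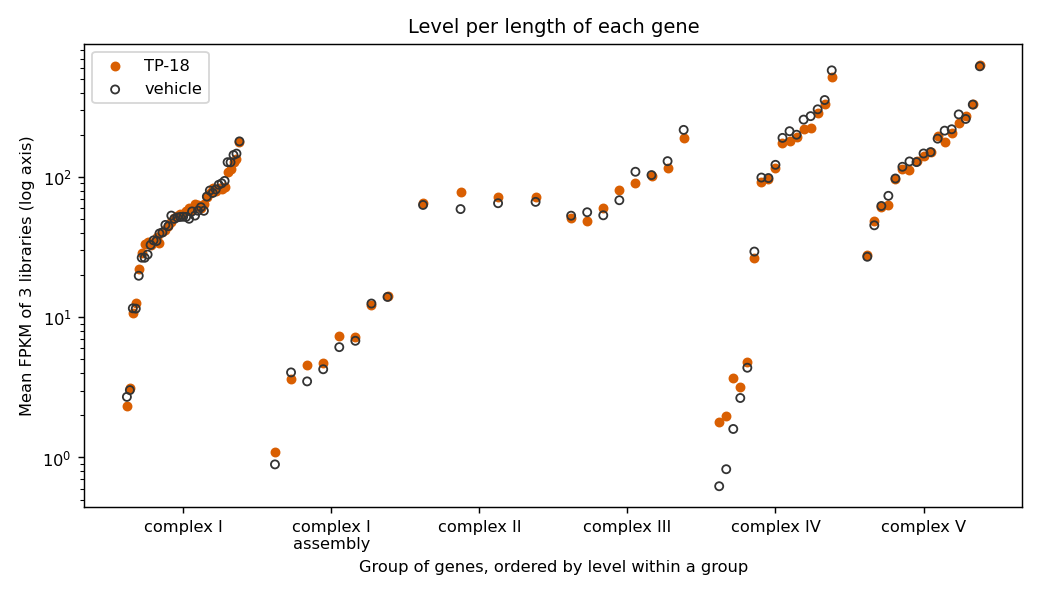
Mean FPKM of each gene (log axis) in TP-18 (filled) and vehicle (open) libraries, 3 libraries each, ordered by level within each complex. The paired symbols nearly coincide for most genes, and the 5 lowest pairs of complex IV are the isoforms of restricted expression.

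The comparison asked how these cells differed after TP-18. No member passed the test: in edgeR's quasi-likelihood test with Benjamini-Hochberg adjustment over 12721 genes, 0 of 93 had an adjusted p under 0.05, and the smallest was 0.210, for Atp5mpl. Over all genes 14 passed (0.11%), 3 of them higher in TP-18 (0.0236%) and 11 lower (0.0865%). Without adjustment, 12 of the 93 members had p under 0.05, all of them lower in TP-18, against 8.7% of all tested genes lower and 7.56% higher at that level. In either direction, 3 members had p under 0.05 with library totals as scaling, 6 with a trend on GC content and length removed and 4 with limma on FPKM. The shares of all tested genes at that level in these other fits are not given here, so nothing is read from those counts. DESeq2 called 499 of 13522 genes (3.69%), with 1.18% of the tested genes higher and 2.51% lower in TP-18, and again 0 members, the smallest member adjusted p being 0.0834, for Cox7a2l. A missed threshold does not show that levels were equal. The 95% interval of the fold change excluded a 2-fold difference for 87 of the 93 members and a 1.5-fold difference for 46. In simulated counts for TP-18 against vehicle over 12579 genes, the test found 0 of 49 genes set to a 1.5-fold change, 9 of 50 set to a 2-fold change and 36 of 47 set to a 4-fold change. The changed genes were drawn at random from all tested genes, so these rates are not rates for the members.

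With TMM scaling 79 of the 93 members (84.9%) had a negative log2 fold change, against 47.4% of all tested genes. Their median was -0.18, against 0.02 for all genes. With library totals as scaling the median of all genes moved up by 0.18, to 0.20, and that of the members to -0.00, so that the gap between them was -0.20 under both scalings while the members' own direction was lost. With a smooth trend on GC content and length removed from the counts, the median was 0.00 for the members and -0.03 for all genes, and 46 of 92 members were negative (50.0%), against 53.5% of all genes. In these bulk samples, fewer cells of a type and less RNA per cell cannot be told apart.

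The vehicle libraries differed from each other by more than the 2 group means did. The 93 members summed to 8207, 7281 and 7968 CPM in TP-18 libraries 1 to 3, against 8925, 9927 and 7854 CPM in vehicle libraries 1 to 3. Vehicle 3 lay among the TP-18 libraries, so the groups overlap. TP-18 2 was the lowest TP-18 library for 64 members, whereas in the vehicle group library 2 was the highest for 70 and library 3 the lowest for 79. Most members thus shared their lowest library within each group. Without vehicle 3, 30 members had an unadjusted edgeR p under 0.05, and without any other single library 2 to 9 did. The shares of all tested genes at that level in these fits are not given here, so nothing is read from those counts. Without vehicle 3, 0 of 12960 genes passed after adjustment.

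**Figure D2:**
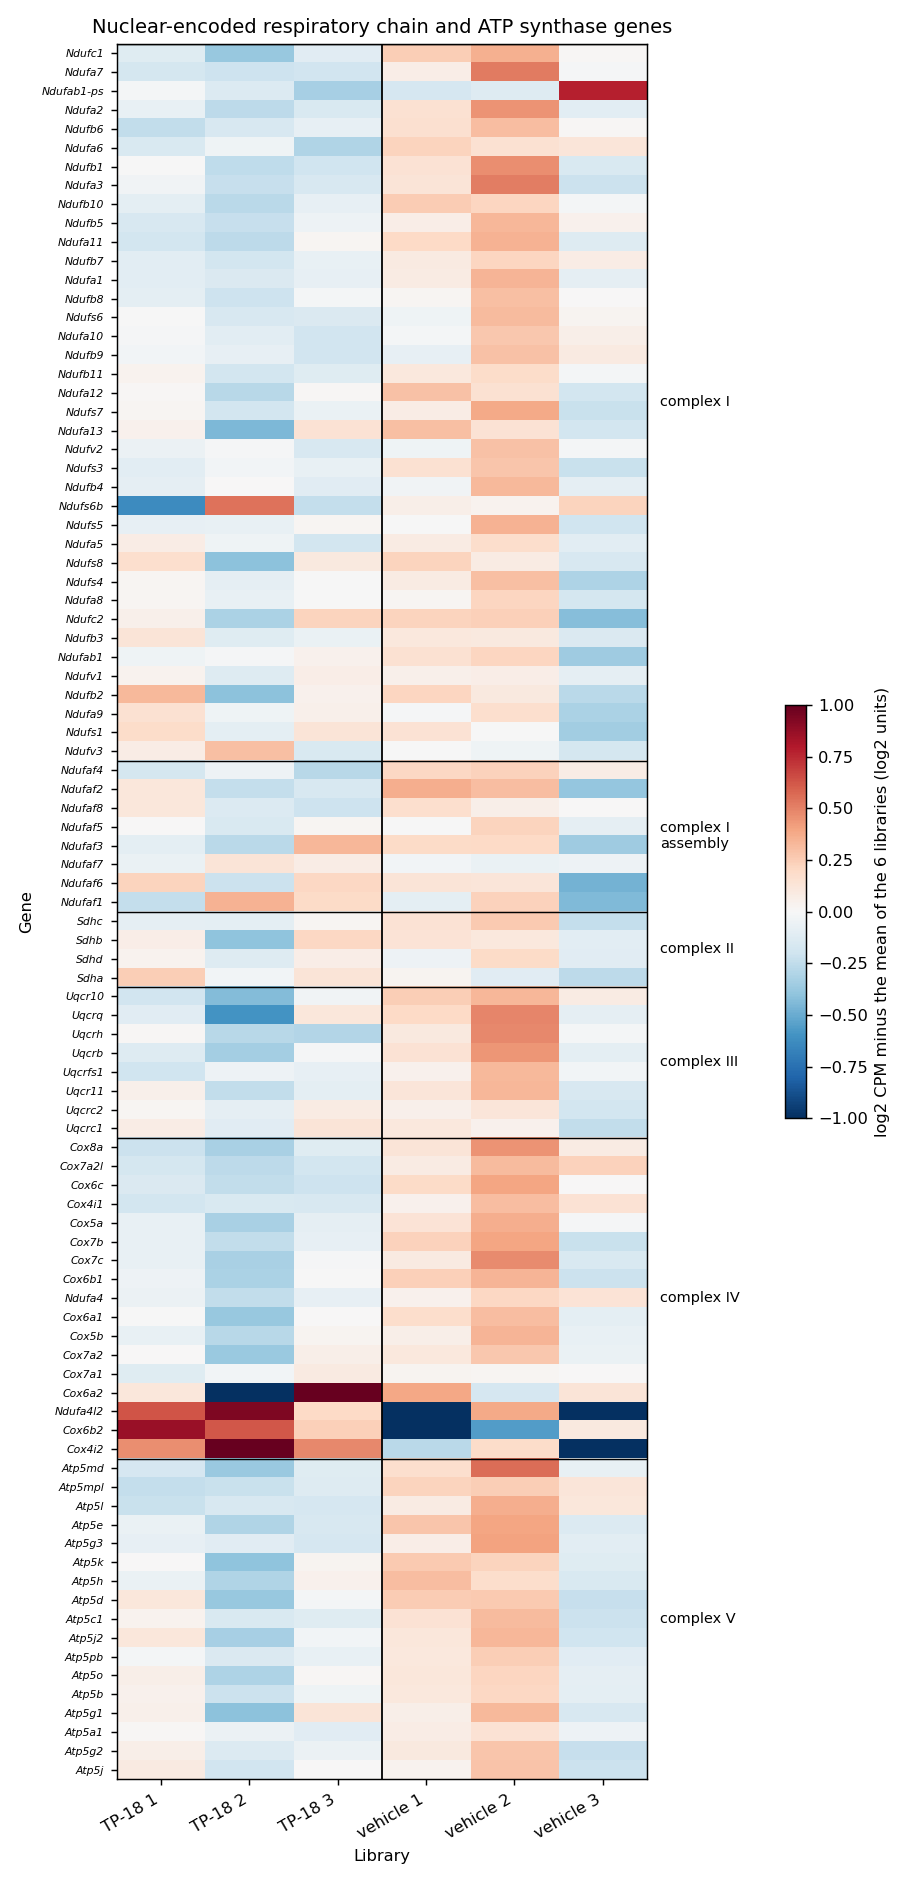
Log2 CPM (TMM scaling) of 92 of the genes, each minus its mean over the 6 libraries, with genes grouped by complex and TP-18 libraries to the left of vehicle libraries; colours end at 1 log2 unit either way. Vehicle 2 is the reddest column and TP-18 2 among the bluest, while vehicle 3 resembles the TP-18 libraries; with library totals as scaling the median difference between the groups is -0.00.

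The fold changes of the members differed with the length of the gene. Members are short, with a median of 795 bases against 3541 for the other tested genes, and their GC content is alike (50.2% against 49.8%). Under 600 bases, 31 of 31 members were negative with a median of -0.26, and the 140 other genes of that length had a median of -0.44. Between 600 and 1000 bases the medians were -0.17 for members and -0.18 for other genes, and between 1000 and 2000 bases -0.13 and -0.08. At 2000 bases and over they were -0.03 and 0.06. Across the 93 members, Spearman's rho between length and log2 fold change was 0.43, and across the 12628 other genes 0.17, as descriptions over genes that share the same 6 libraries.

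**Figure D3:**
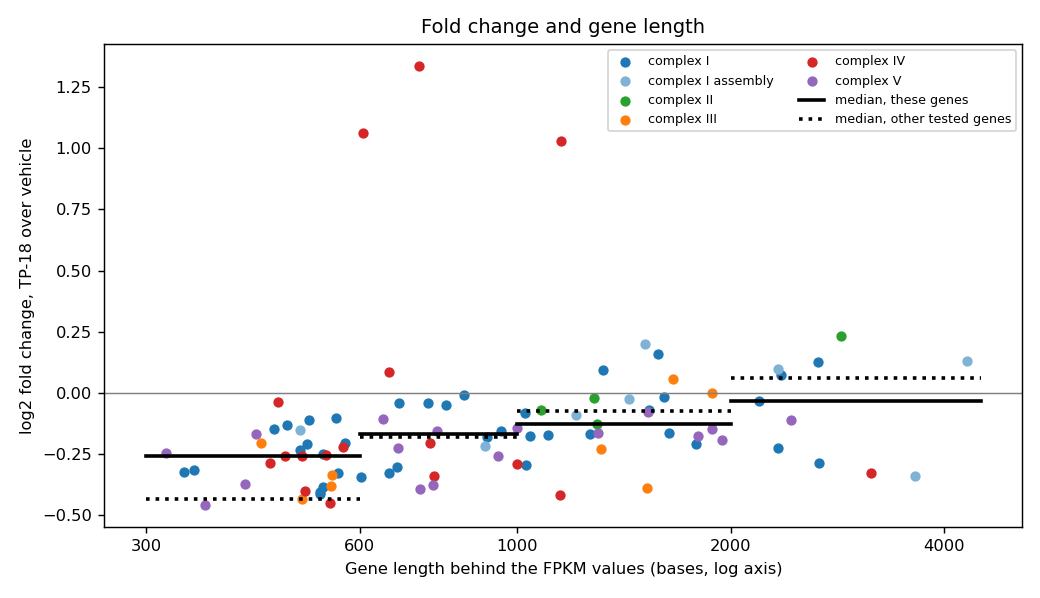
Log2 fold change of each gene, TP-18 over vehicle (edgeR, TMM scaling), against gene length in bases (log axis), coloured by complex; solid bars are medians of these genes within 4 length classes and dotted bars medians of all other tested genes. Both sets of bars climb with length, and for the shortest class the members (-0.26) lie above the other genes (-0.44); with library totals as scaling all values move up by about 0.18.

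Complex I takes electrons from NADH. The median log2 fold change of its 39 members was -0.17 and 35 were negative, but the median was 0.00 with library totals and -0.01 with the trend removed. The 7 nuclear-encoded core subunits of the matrix arm, which carry the flavin and the iron-sulfur clusters, had a median of -0.08, which was 0.09 with library totals and -0.05 with the trend removed. The 20 accessory subunits of the membrane arm were all negative with a median of -0.22, which was -0.04 with library totals and 0.03 with the trend removed. Of the 39, 8 (20.5%) had every TP-18 library below every vehicle library under TMM, against 11.7% of all tested genes. With library totals every member lower without overlap belonged to complex IV or V. With the trend removed Ndufa10, Ndufb5 and Ndufb8 lay lower without overlap. Ndufa1, Ndufa8, Ndufa9, Ndufb3, Ndufb4, Ndufs5 and Ndufs6 then lay higher without overlap. Of all genes, 15.5% lay lower and 8.01% higher in that case.

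Ndufa6, an accessory subunit of the matrix arm with the NRF1 letters shown above, had 61.0, 65.7 and 54.8 CPM in TP-18 libraries, against 78.8, 75.3 and 73.5 CPM in vehicle libraries. All 3 TP-18 libraries lay lower, with a log2 fold change of -0.33 ± 0.12 (SE) and an edgeR adjusted p = 0.263. Ndufa7, which sits in the same arm, had 54.6, 53.5 and 54.3 CPM against 64.9, 88.5 and 61.3 CPM in vehicle. Its TP-18 values were nearly identical and lay below all vehicle values, of which that of library 2 was much the highest. Ndufc1, a small subunit of the membrane arm, had 17.6, 14.8 and 17.7 CPM against 22.7, 24.5 and 19.4 CPM in vehicle, again without overlap, with an edgeR adjusted p = 0.287. The groups of Ndufa6, Ndufa7 and Ndufc1 overlapped with library totals and with the trend removed. Their log2 fold changes with the trend removed were -0.07, -0.07 and -0.03. The most abundant member of the complex per length was Ndufb9, a membrane arm subunit of the LYR family, with 99.9, 95.9 and 89.1 CPM against 95.9, 124.5 and 108 CPM in vehicle. The groups of Ndufb9 overlapped, since TP-18 1 lay above vehicle 1. The processed pseudogenes Ndufab1-ps and Ndufs6b had at most 2.25 CPM in any library, and the transcript of Ndufab1-ps is at least 98% identical to Ndufab1 over its length, so reads can be counted on either.

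The 8 assembly factors, which build complex I and are not part of the finished enzyme, had a median of -0.06 with 5 negative, and 0.12 with library totals. Ndufaf4 was the one whose groups did not overlap: 12.3, 13.4 and 11.4 CPM in TP-18 libraries, against 15.98, 16.2 and 14.6 CPM in vehicle libraries. Its log2 fold change was -0.34 ± 0.16 (edgeR adjusted p = 0.352), and it kept this lack of overlap with the trend removed but not with library totals. The other 7 factors lay between -0.22 for Ndufaf2 and 0.20 for Ndufaf1. Ndufaf2 overlaps other genes over 65.6% of its exonic length, so its count is uncertain.

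Complex II, succinate dehydrogenase, joins the citric acid cycle to the respiratory chain and has no subunit encoded in mitochondrial DNA. Sdha, the flavoprotein that oxidises succinate, had 229.8, 189.9 and 212 CPM in TP-18 libraries, against 198, 179 and 162 CPM in vehicle libraries. The TP-18 mean was higher and the groups overlapped, since TP-18 2 lay below vehicle 1. With library totals as scaling they did not overlap. The log2 fold change was 0.23 ± 0.14 (edgeR adjusted p = 0.455), or 0.41 with library totals and 0.18 with the trend removed. Sdhb, the iron-sulfur subunit, had 77.3, 55.9 and 85.1 CPM against 81.1, 79.2 and 68.5 CPM in vehicle, and the membrane anchors Sdhc and Sdhd had log2 fold changes of -0.13 and -0.02. The groups of all 3 overlapped. Sdha is also the longest of the 4 genes, at 2859 bases.

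Complex III passes electrons from reduced coenzyme Q to cytochrome c. Its 5 small subunits, which surround the catalytic core, had a median of -0.38, or -0.20 with library totals and -0.03 with the trend removed, and all 5 were negative under TMM and library totals. Uqcr10, one of these, had 43.2, 36.6 and 48.2 CPM in TP-18 libraries, against 58.6, 62.1 and 52.2 CPM in vehicle libraries. Its groups did not overlap, and the log2 fold change was -0.43 ± 0.15 (edgeR adjusted p = 0.238), which shrank to -0.13 with the trend removed. Uqcrh, the acidic hinge protein and the most abundant member of complex III per length, had 110.5, 90.6 and 89.7 CPM against 117, 153 and 108 CPM in vehicle. Here TP-18 1 lay above vehicle 3. Uqcrfs1, the Rieske iron-sulfur protein that takes the first electron, had 59.4, 65.8 and 64.3 CPM against 70.1, 85.1 and 66.8 CPM in vehicle, without overlap. With library totals and with the trend removed the groups of Uqcr10 and Uqcrfs1 overlapped. The core proteins stood apart from the small subunits, with log2 fold changes of 0.06 for Uqcrc1 and 0.00 for Uqcrc2, and their genes are longer.

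Complex IV, cytochrome c oxidase, reduces oxygen to water. Its 12 common nuclear subunits were all negative, with a median of -0.29, or -0.11 with library totals, where again all 12 were negative, and -0.03 with the trend removed, where 7 were. Of the 12, 6 had every TP-18 library below every vehicle library, against 11.7% of all tested genes. With library totals 2 did (Cox4i1 and Cox7a2l), against 4.76% of all genes, and with the trend removed 4 did, against 15.5%. The complex as a whole summed to 1598, 1444 and 1624 CPM in TP-18 libraries, against 1873, 2190 and 1761 CPM in vehicle libraries. This was the one complex whose summed level did not overlap between the groups, and with library totals as scaling it did, at 1685, 1539 and 1736 against 1802, 2047 and 1626 CPM. The sum is carried by the abundant genes. With all 17 genes weighted equally, the mean log2 deviation from the gene means was 0.03, -0.13 and 0.05 in TP-18 libraries, against -0.03, 0.23 and -0.16 in vehicle libraries, with overlap. With the trend removed that mean was higher in every TP-18 library, at 0.12, 0.02 and 0.17 against -0.07, -0.09 and -0.14 in vehicle. The 17 genes include Cox4i2 and Cox6b2, which met the count limit only through the TP-18 libraries, so nothing is read from this separation. With the trend removed the 5 isoforms of restricted expression had a median log2 fold change of 1.10, against -0.03 for the 12 common subunits. The 5 include Cox4i2 and Cox6b2, so nothing is read from this contrast either.

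Cox7a2l is known as a factor of supercomplexes of complexes III and IV, a role not examined in these BALB/c mice. The gene (chromosome 17, 83501918 to 83517330, minus strand, GRCm38) had 198, 187 and 197 CPM in TP-18 libraries, against 237, 279 and 263 CPM in vehicle libraries. The highest TP-18 library lay well below the lowest vehicle library. The log2 fold change was -0.42 ± 0.13 (95% interval -0.72 to -0.12, edgeR adjusted p = 0.218), and it was -0.24 with library totals and -0.34 with the trend removed. With each library left out in turn it stayed between -0.50 and -0.38. Cox4i1 (chromosome 8, 120668222 to 120674207, plus strand), which carries a regulatory site for ATP, had 367, 374 and 372 CPM against 429, 517 and 462 CPM in vehicle. The TP-18 libraries were within a few CPM of each other and all lay lower. Cox8a, the form of subunit 8 found in most tissues, had 115.5, 107 and 124 CPM against 147, 183 and 143 CPM in vehicle, a log2 fold change of -0.45 ± 0.15 (edgeR adjusted p = 0.230). Cox6c had 108, 100.6 and 103 CPM against 136, 157 and 119 CPM in vehicle, and Cox5a had 83.2, 70.1 and 82.3 CPM against 96.3, 113 and 86.7 CPM in vehicle. Both were without overlap. Ndufa4, first described in complex I and since placed in complex IV, had 56.8, 49.7 and 55.7 CPM against 60.8, 68.3 and 64.9 CPM in vehicle, also without overlap. With library totals the groups of Cox8a, Cox6c, Cox5a and Ndufa4 overlapped. With the trend removed those of Cox6c and Ndufa4 overlapped too, at log2 fold changes of -0.03 and 0.15. Cox8a and Cox5a then stayed lower without overlap, at -0.18 and -0.32. In the other 6 common subunits, Cox5b, Cox6a1, Cox6b1, Cox7a2, Cox7b and Cox7c, vehicle 3 lay among the TP-18 libraries, and their log2 fold changes ran from -0.29 to -0.20.

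Of the 5 isoforms of restricted expression, 3 had log2 fold changes above 1, with wide errors and few counts. The summed count of Cox4i2 was 68 in TP-18 and 23 in vehicle libraries, and that of Cox6b2 was 62 in TP-18 and 25 in vehicle libraries, so both met the count limit of 60 only through the TP-18 libraries. Their place among the members thus depends on the group where they are high, and their values are given as a description. Cox4i2 (chromosome 2, 152754173 to 152765037, plus strand), the form of subunit 4 known from lung, vessel walls and oxygen-sensing cells, had 17, 34 and 17 counts in TP-18 libraries, against 9, 12 and 2 in vehicle libraries, which is 0.916, 1.85 and 0.928 CPM against 0.553, 0.755 and 0.132 CPM. Every TP-18 library lay above every vehicle library, with a log2 fold change of 1.34 ± 0.66 and a 95% interval of -0.20 to 2.87 (edgeR adjusted p = 0.361). With each library left out in turn the value ran from 0.89, without vehicle 3, to 1.80, without vehicle 2. Ndufa4l2, a paralogue of Ndufa4 known as a target of hypoxia-inducible factor 1, had 4.04, 4.99 and 3.00 CPM in TP-18 libraries, against 1.23, 3.40 and 1.26 CPM in vehicle libraries. Vehicle 2 lay inside the range of the TP-18 group, and the log2 fold change was 1.03 ± 0.48 (edgeR adjusted p = 0.334), and 1.67 without vehicle 2. Cox6b2, known as the testis form of subunit 6b, had 1.35, 1.14 and 0.874 CPM against 0.307, 0.503 and 0.794 CPM in vehicle, without overlap, and a log2 fold change of 1.06 ± 0.52 (edgeR adjusted p = 0.359). The groups of Cox4i2 and of Cox6b2 did not overlap with library totals or with the trend removed either. This adds no support, since the same TP-18 counts brought both genes past the limit. No other member had every TP-18 library higher under TMM scaling, against 11.6% of all tested genes, and nothing is read from the count because the limit helped to choose both.

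Cox6a2 and Cox7a1, known from heart and skeletal muscle, had log2 fold changes of 0.09 ± 0.60 and -0.04 ± 0.32. Cox6a2 had 1.83, 0.597 and 3.50 CPM in TP-18 libraries, against 2.21, 1.51 and 1.85 CPM in vehicle libraries, so that the TP-18 libraries spanned the vehicle ones. Cox7a1 lay between 1.94 and 2.24 CPM in all 6 libraries. As a share of the common form, on FPKM, Cox4i2 was 0.347 ± 0.148% of Cox4i1 in TP-18 and 0.106 ± 0.0667% in vehicle libraries (SD, n = 3 each), and Ndufa4l2 was 3.24 ± 1.02% of Ndufa4 in TP-18 and 1.29 ± 0.747% in vehicle libraries. Cox6b2 was 0.595 ± 0.147% of Cox6b1 in TP-18 and 0.254 ± 0.168% in vehicle libraries. These Cox6b2 shares overlapped, at 0.425% in TP-18 3 and 0.445% in vehicle 3. The common forms thus made up nearly all of the message of each pair in both groups.

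Cox4i2 and Ndufa4l2 are known to be high in pericytes and smooth muscle of vessels. The 6 markers of those cells summed to 84.5, 102 and 64.3 CPM in TP-18 libraries, against 49.7, 62.9 and 34.1 CPM in vehicle libraries, without overlap. Much of that sum was Pdgfrb, with 49.5, 71.6 and 44.5 CPM against 42.0, 34.8 and 24.5 CPM in vehicle. The groups of Rgs5 and Notch3 overlapped. Rgs5 had 16.3, 10.6 and 7.10 CPM against 2.77, 16.9 and 3.44 CPM in vehicle. Notch3 had 4.85, 5.86 and 1.97 CPM against 0.922, 2.58 and 1.59 CPM in vehicle. All 6 markers were tested, 0 passed, and none was at 0 in every library. Fibroblast markers summed to 1232 to 1499 CPM in TP-18 and 640 to 967 CPM in vehicle libraries, and skeletal muscle markers to 11.7 to 62.2 CPM and 50.3 to 87.8 CPM. The part of these cells in the levels of the isoforms was not tested.

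**Figure D4:**
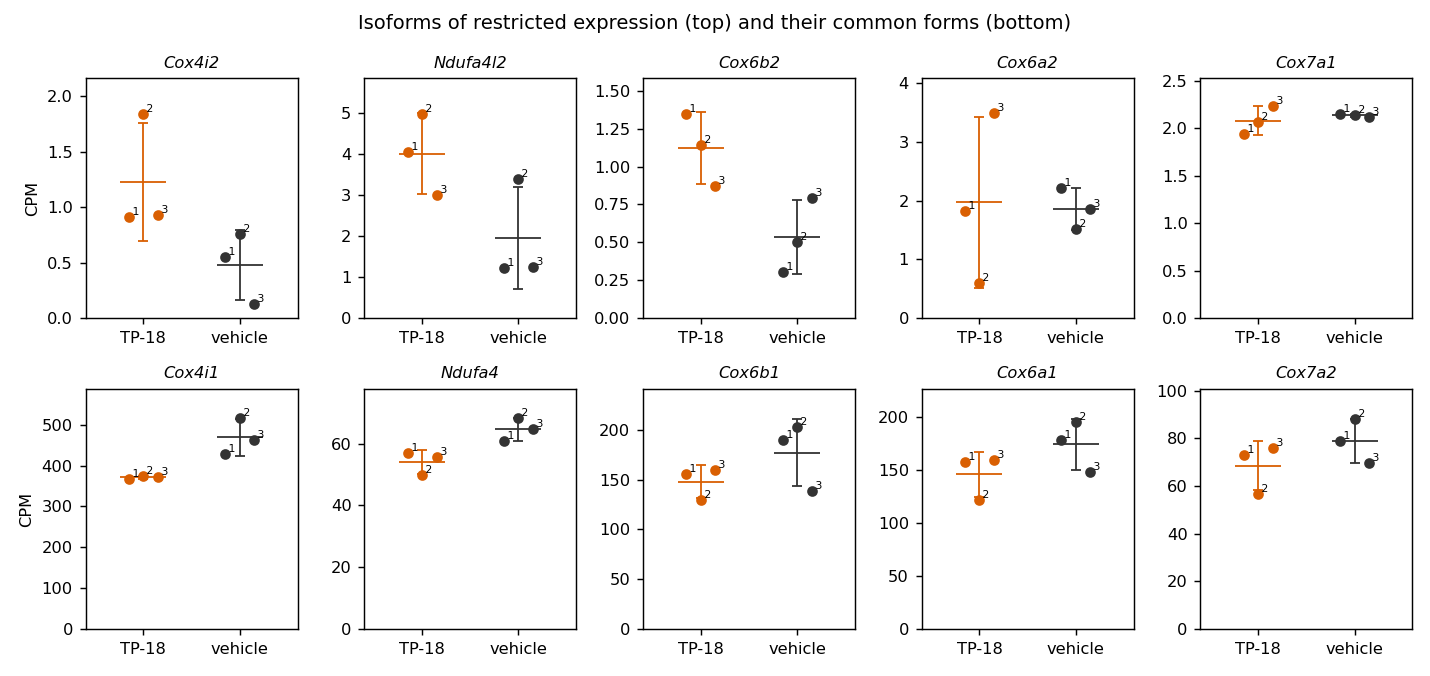
CPM (TMM scaling, axes from 0) in each library of 5 isoforms of restricted expression (top) and their common forms (bottom); points are libraries with their replicate number, lines are means and bars are SD, n = 3 per group. Cox4i2 and Cox6b2 lie higher and Cox4i1 and Ndufa4 lower in every TP-18 library than in any vehicle library. With library totals as scaling, and with the trend removed, Ndufa4 overlaps.

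Complex V makes ATP. All 17 members were negative with a median of -0.18, which was -0.00 with library totals and -0.03 with the trend removed, where 9 of 17 were negative in either case. Atp5b had 1199, 1004 and 1134 CPM in TP-18 libraries, against 1252, 1347 and 1093 CPM in vehicle libraries, and Atp5a1, the other large subunit of the head, had 651, 620.1 and 595 CPM against 678, 712 and 624 CPM in vehicle. The groups of both overlapped, with log2 fold changes of -0.15 ± 0.14 and -0.11 ± 0.13. Atp5b alone took 20.7 to 21.2% of the summed FPKM of complex V in TP-18 and 19.4 to 20.8% in vehicle libraries. The 3 genes for the c ring, the rotor in the membrane, encode the same mature protein, and of them Atp5g3 had 188, 184 and 177 CPM against 209, 263 and 185 CPM in vehicle. For this gene vehicle 3 lay among the TP-18 libraries, with a log2 fold change of -0.26 ± 0.16.

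The 5 small subunits of the membrane part, some of which hold ATP synthase dimers together, had a median of -0.37, or -0.20 with library totals and 0.09 with the trend removed. Atp5mpl (chromosome 12, 111961375 to 111966977, minus strand), a small proteolipid, had 42.2, 42.6 and 45.4 CPM in TP-18 libraries, against 58.0, 59.0 and 53.9 CPM in vehicle libraries. Each group was tight and they did not overlap, also with library totals and with the trend removed. Its log2 fold change of -0.39 ± 0.12 (95% interval -0.66 to -0.12, edgeR adjusted p = 0.210) had the smallest p of all members, and was -0.21 with library totals and -0.22 with the trend removed. Atp5l, subunit g, had 78.8, 81.9 and 81.5 CPM against 97.0, 118 and 99.2 CPM in vehicle, without overlap. Atp5md had 62.2, 54.1 and 64.4 CPM against 78.7, 103 and 66.4 CPM in vehicle, with a log2 fold change of -0.46 ± 0.18 that became 0.09 with the trend removed.

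**Figure D5:**
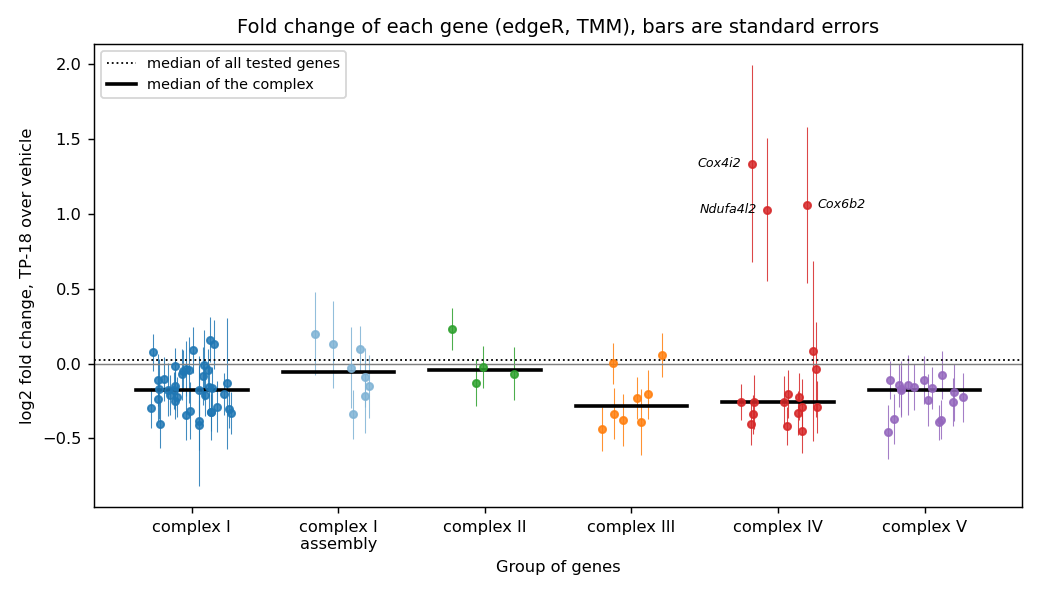
Log2 fold change of each gene, TP-18 over vehicle (edgeR, TMM scaling), by complex, with standard errors as thin bars and the median of each complex as a thick bar. Most points lie below 0 and below the median of all tested genes (0.02), and Cox4i2, Cox6b2 and Ndufa4l2 stand above 1 with wide errors. With library totals as scaling the medians of complexes I, II and the assembly factors are 0.00, 0.13 and 0.12. With the trend removed the median of complex IV is 0.08, and that of its 12 common subunits is -0.03.

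Over all 93 members, 20 (21.5%) had every TP-18 library below every vehicle library, against 11.7% of all tested genes. With library totals 4 did (Atp5l, Atp5mpl, Cox4i1 and Cox7a2l), against 4.76% of all genes, while 7 lay higher without overlap, against 23.5% of all genes. With the trend removed 10 of 92 lay lower, against 15.5% of all genes, and 10 higher, against 8.01%. Atp5mpl, Cox4i1 and Cox7a2l were lower without overlap in all 3 cases. These genes were picked out after their values were seen.

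The members sit on 19 chromosomes, 3 of them on the X, and 80 of the 93 carry the KEGG term for oxidative phosphorylation in the deposited table. Of the 93, 18 share at least 25% of their longest transcript with another gene at 98% identity or more, or as much of their exons with an overlapping gene, among them Ndufs3, Uqcrb, Atp5o and Cox5b, so their counts are uncertain. Among the 74 other annotated members the median was -0.18 with 61 negative.

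In the 3 largest lists of genes that work with the chain, about as many were negative as positive. Of complex IV assembly factors, 10 of 20 tested were negative, with a median of -0.03, and of coenzyme Q synthesis and electron carrier genes 7 of 15, with a median of 0.03. Of citric acid cycle and pyruvate dehydrogenase genes, 9 of 18 were negative, with a median of -0.02. Among assembly factors outside the name rule, 4 of 8 were negative for complex I, 3 of 4 for complex II, 2 of 6 for complex III and 2 of 4 for complex V. In none of these lists did a gene pass the edgeR test. Mdh2, the mitochondrial malate dehydrogenase, had 293, 275 and 284 CPM in TP-18 libraries, against 304, 380 and 256 CPM in vehicle libraries, and Cyc1, the cytochrome c1 of complex III that the name rule does not take, had 87.2, 69.4 and 92.4 CPM against 92.0, 85.3 and 73.2 CPM in vehicle. The groups of both overlapped.

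Of 13 regulators of mitochondrial biogenesis, 7 were negative with a median of -0.02, and 0 passed. Gabpb1, the beta subunit of the ETS factor GABP, had 22.4, 21.8 and 26.8 CPM in TP-18 libraries, against 42.0, 44.5 and 49.2 CPM in vehicle libraries. Its TP-18 libraries all lay far below the vehicle libraries, with a log2 fold change of -0.93 ± 0.15 and an edgeR adjusted p = 0.0818, just over the threshold. Gabpa, the DNA-binding partner, had 66.3, 74.1 and 69.6 CPM against 65.9, 70.4 and 82.9 CPM in vehicle, and its groups overlapped. Pprc1, a coactivator of the PGC-1 family, had 84.96, 74.1 and 80.5 CPM against 109, 97.7 and 125 CPM in vehicle, and Cox15, a heme A synthase needed to assemble complex IV, had 30.3, 33.7 and 34.5 CPM against 23.0, 22.5 and 21.4 CPM in vehicle. Both were without overlap, with edgeR adjusted p = 0.210 and 0.158. Nrf1 had 41.5, 40.8 and 42.9 CPM against 51.1, 43.5 and 54.7 CPM in vehicle. Yy1 had 147.9, 146.7 and 123.4 CPM against 150.7, 161.8 and 160.5 CPM in vehicle. Nrf1 and Yy1 thus lay lower without overlap, with edgeR adjusted p = 0.385 and 0.530. Of all tested genes, 11.7% lay lower without overlap and 11.6% higher. Values of the regulators under other scalings are not given here. Others of the list lay higher in TP-18 libraries: Tfam, which binds and packs mitochondrial DNA, had 24.2, 24.6 and 24.6 CPM against 22.3, 19.4 and 17.5 CPM in vehicle, without overlap (edgeR adjusted p = 0.360). Polrmt, the mitochondrial RNA polymerase, had 19.1, 16.4 and 21.5 CPM against 16.7, 11.1 and 10.2 CPM in vehicle, with overlap, and a log2 fold change of 0.59 ± 0.23 (edgeR adjusted p = 0.281). Gabpb1, Gabpa, Nrf1, Tfam, Polrmt and Cox15 were named after their values were seen. Any part of a regulator in the levels of the subunit genes was not tested.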

How the data were processed

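Values were deposited by the authors for all 6 libraries: raw gene counts, and FPKM. The submitters' processing notes list fastp, HISAT2, HTSeq and GRCm38; neither versions and settings nor strand and annotation release are given in the sources used here. The kit was VAHTS Universal V6, per the labels' protocols. The deposited FPKM equal count over library total and 1 length per gene. They are therefore scaled to library totals.

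Counts were tested with edgeR 4.0.16 (R 4.3.3): filterByExpr (minimum count 10, minimum total 15; all 93 members passed), TMM factors, quasi-likelihood test of TP-18 against vehicle without covariates, two-sided, with Benjamini-Hochberg adjustment over 12721 genes and a threshold of 0.05. Groups come from the sample labels. Alternatives were DESeq2 1.42.0, RLE factors or library totals, no filter, limma 3.58.1 with trend on log2(FPKM + 1) and log2(FPKM + 0.1), a smooth trend on GC content and length removed as offsets (mgcv 1.9.3), a replicate block, and each library left out. The test was also checked on simulated counts. Annotation was GENCODE M21, matched by Entrez identifier for 16604 genes and by symbol for 247, with 340 unmatched, Ndufb1 among them. Shared sequence was found with BLAST+ 2.17.0, and figures were drawn with matplotlib 3.10.9.

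The members and all lists were chosen with earlier results of these data known. Members were named by complex: the 3 with the highest CPM, the 3 with the smallest p, the highest and the lowest, and the listed complex II to V subunits and isoforms; values are given for part of these, and those of 1 member are not reported here. Names outside this rule were chosen after values were seen. Precision is set by 3 libraries a group more than by depth.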

Additional observations from a re-analysis of the deposited data

How the results depend on the processing

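The count of members past the threshold was 0 in the test reported and in all 15 alternatives. The count over all genes, 14 as reported, was 499 with DESeq2, 63 with the GC and length trend removed, 27 without a filter, 4 with library totals, 2 with limma on either pseudocount and 0 to 8 with 1 library left out (8 without vehicle 1). The members' median of -0.18 was 0.0013 with the trend removed, -0.0023 with library totals, -0.010 and -0.0018 with limma on log2(FPKM + 0.1) and log2(FPKM + 1), and -0.27 to -0.11 with 1 library left out, the ends being without vehicle 3 and without vehicle 2. The negative members, 79 as reported, numbered 46, 48, 49 and 48 in the same 4 fits and 70 to 84 with 1 library left out. Limma on FPKM is scaled to library totals by construction. Non-overlapping members, 20 lower and 2 higher as reported, were 4 and 7 with library totals and 10 and 10 with the trend removed, alternatives chosen after seeing the data.

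Same-numbered libraries of the groups correlated in their deviations at 0.16, 0.39 and -0.15, so the numbers were not taken to pair the samples. With the replicate number as a block 3 genes passed, 0 of them members, the members' median was -0.18 and 80 were negative. With the block and the trend removed 18 genes passed, with a median of 0.0011 and 46 negative. No member passed a threshold in any fit, so there was no called member whose sign could change. Directions of groups that no test called did change. With library totals the complex I core had a median of 0.09, the assembly factors 0.12 and complex II 0.13. As reported these were -0.08, -0.06 and -0.05. With the trend removed complex IV was 0.08 against -0.26 and Atp5md 0.09 against -0.46. The 12 common subunits of complex IV stayed negative, at -0.03 against -0.29. The cause was not tested. With 3 libraries a group, a 2-fold difference was mostly missed in simulated counts (9 of 50 found) and 1.5-fold ones were not found (0 of 49). Those genes were drawn from all tested genes and not at the levels of the members. Genes under about 3 CPM, such as Cox4i2, Cox6b2, Cox6a2 and the pseudogenes, also rest on few counts.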
